A study of Mus musculus with 5 samples.

Results

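Mouse embryonic stem cells of 2 lines, J1 kept on a feeder layer and E14 kept without one, were compared on the 5 expression arrays of the series: the mean log2 value of the 3 E14 arrays minus the mean of the 2 J1 arrays, for each probe set. A probe set was called consistent where all 3 E14 arrays lay on the same side of both J1 arrays. Of 45101 probe sets on the array, 29001 exceeded the 40th percentile of their array on at least 1 array and were kept, and 14420 of these (49.7%) were consistent, 7929 with E14 higher (27.3%) and 6491 with E14 lower (22.4%). Read at 1 probe set per gene, the brightest with a single gene symbol, the comparison held 13643 genes, of which 6665 (48.9%) were consistent, 3698 with E14 higher (27.1%) and 2967 with E14 lower (21.7%).

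The series was made to find genes that respond to depletion of Tet1, a dioxygenase that oxidizes 5-methylcytosine in DNA, and holds 1 array for each treatment. The J1 cells had been grown with mouse embryonic fibroblasts (MEF) as feeders, transfected with a control siRNA or a Tet1 siRNA, and harvested 4 days later. The E14 cells had been grown feeder-free, infected with lentivirus that carried a scrambled hairpin (Scr shRNA) or 1 of 2 Tet1 hairpins (shRNA3387, shRNA2863), and harvested after 4 days of puromycin. All 5 arrays are of total RNA from unsorted cultures. Line, feeders, delivery and puromycin differ together between the J1 and the E14 arrays, so their parts cannot be told apart, and below "E14" and "J1" stand for the whole combination. Array values are given below in the order control and Tet1 siRNA for J1, and scrambled, shRNA3387 and shRNA2863 for E14. Tet1, the targeted gene, read 10.85 and 8.31 in J1 and 10.95, 9.24 and 10.06 in E14. It was lower on each array labelled as depleted, and its values overlapped between the lines.

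Embryonic stem cells are taken from the inner cell mass and are held in a self-renewing state by LIF through Stat3, while FGF-ERK signalling moves them towards a primed epiblast state. Feeder fibroblasts supply LIF, matrix and BMP ligands, and remain a minor source of RNA unless they are removed. Imprinted genes, which are expressed from 1 parental copy, and the number of copies of whole chromosomes are known to vary between and within stem cell lines in culture.

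The promoters of 3 genes among the 12 with the widest gap below J1 are shown first. They are Hprt, the purine salvage enzyme on the X chromosome, and the imprinted genes Nnat and Plagl1, which are both expressed from the paternal copy and fell together. Each is the 250 bases upstream of the annotated start, from RefSeq on GRCm38.p6, plus strand, with each CpG (the motif CG, which reads the same on both strands) in capitals.
Hprt, chrX:52987828-52988077: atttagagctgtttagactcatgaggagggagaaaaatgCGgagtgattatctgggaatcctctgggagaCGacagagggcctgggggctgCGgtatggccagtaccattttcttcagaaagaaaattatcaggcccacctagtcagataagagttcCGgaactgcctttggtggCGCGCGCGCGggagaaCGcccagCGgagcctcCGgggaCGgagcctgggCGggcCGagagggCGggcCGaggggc
Nnat, chr2:157559828-157560077: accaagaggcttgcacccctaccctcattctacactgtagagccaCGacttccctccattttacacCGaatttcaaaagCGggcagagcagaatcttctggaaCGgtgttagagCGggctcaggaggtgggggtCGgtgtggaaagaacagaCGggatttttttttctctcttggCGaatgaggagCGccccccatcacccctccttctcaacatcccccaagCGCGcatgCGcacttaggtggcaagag
Plagl1, chr10:13090582-13090831: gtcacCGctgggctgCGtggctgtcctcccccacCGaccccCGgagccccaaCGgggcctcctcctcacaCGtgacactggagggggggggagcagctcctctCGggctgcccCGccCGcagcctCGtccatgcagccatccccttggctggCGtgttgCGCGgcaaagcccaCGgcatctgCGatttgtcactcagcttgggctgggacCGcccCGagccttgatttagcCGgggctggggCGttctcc
These windows hold 17, 12 and 19 CpG. Over 27025 promoters of the same length, 91.7% hold at least 1 and the median is 6. Over the 10945 kept genes with a promoter the median is 15. Over genes consistent and at least 2-fold lower in E14 it is 17, so these counts are not unusual among kept genes. Methylation was not measured on these arrays.

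The array controls also separated the lines, in the same direction on every array of a line. Poly-A spike RNAs, which are added to a sample before labelling, read at background in J1 and well above it in E14: the dap spike read 2.36 and 2.36 on the J1 arrays and 8.06, 8.94 and 9.06 on the E14 arrays, and the lines did not overlap at 12 of 12 poly-A spike probe sets. The probe sets for 18S ribosomal RNA read 5.30 and 5.50 in J1 and 11.2, 9.56 and 9.90 in E14, and that for the B1 repeat 7.89 and 7.89 in J1 and 11.3, 11.3 and 11.6 in E14. The hybridization spikes, added after labelling, did not overlap at 8 of 9 probe sets. The difference between the 3′ and 5′ probe sets was 0.63 and 0.31 in J1 and 0.41, 0.51 and 0.54 in E14 for beta-actin, so this sign of RNA length overlapped between the lines. The labels give the same extraction and labelling protocol for all 5 arrays and do not name what set these controls apart. The difference cannot be told apart from line, and its part in the results below was not tested.

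**Figure D1:**
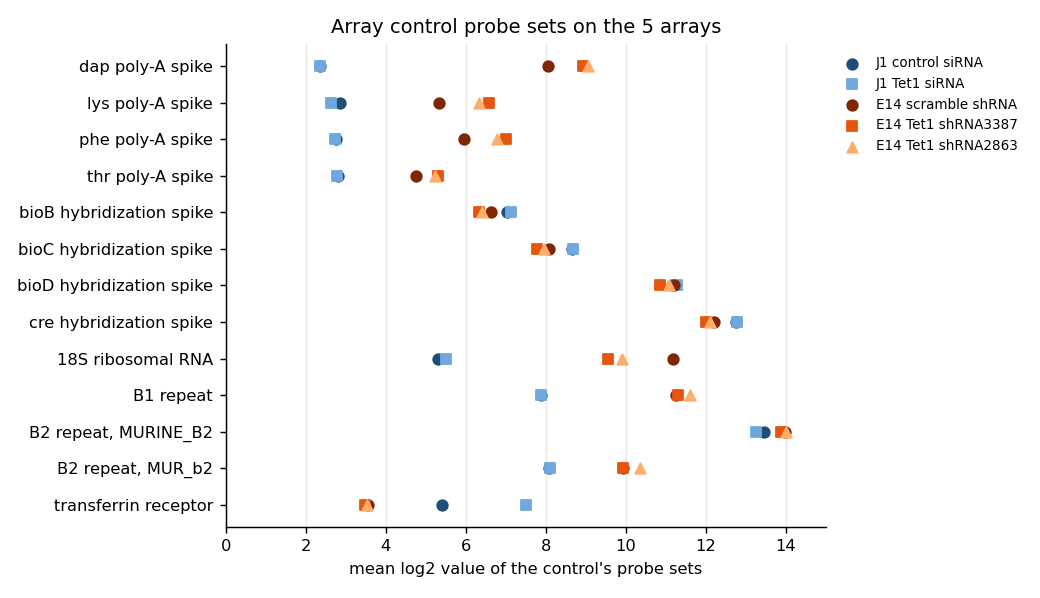
Array control probe sets on the 5 arrays. The x axis is the mean log2 value of each control's probe sets and each point is 1 array. The poly-A spikes, 18S ribosomal RNA, B1 repeat and MUR_b2 repeat lie higher on the 3 E14 arrays (brown, orange) than on both J1 arrays (blue), and the bioB, bioC and cre spikes and the transferrin receptor controls lie lower.

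Arrays of different lines stood farther apart than arrays of the same line. At least 2-fold different were 1051 to 1481 genes for the 6 pairs of an E14 and a J1 array, 137 to 246 genes for the 3 pairs within E14, and 214 genes for the J1 pair. Of the sum of squares over genes and arrays, 70.7% lay between the lines, 10.99% within J1 and 18.3% within E14. The J1 array with Tet1 siRNA was farther from the E14 arrays (1305 to 1481 genes) than the J1 array with control siRNA (1051 to 1195 genes). As arrays within a line differ in Tet1 treatment and no label names separate cultures, the p-values below measure only the spread between these arrays.

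**Figure D2:**
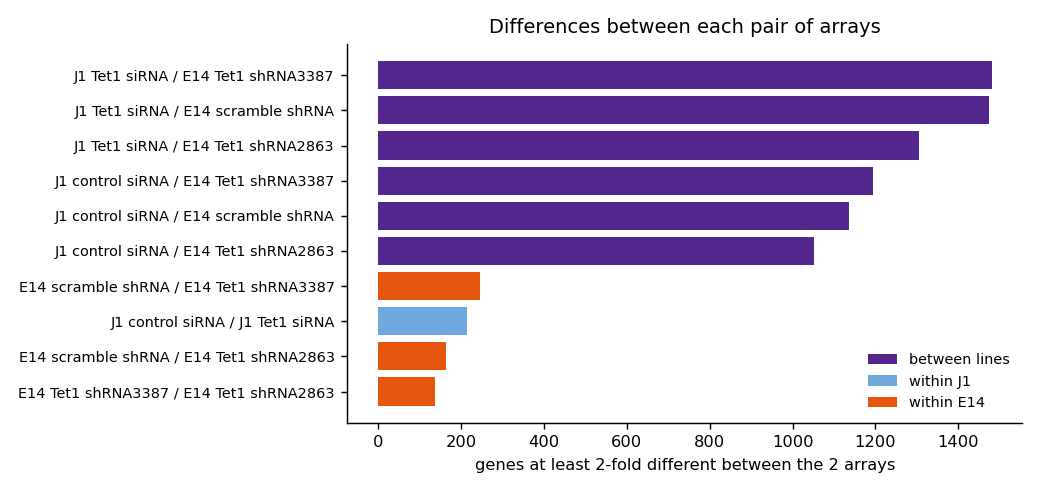
Number of genes, of 13643, at least 2-fold different for each of the 10 pairs of arrays. The bars of the 6 pairs between lines (purple, 1051 to 1481 genes) are longer than those within J1 (blue, 214 genes) and within E14 (orange, 137 to 246 genes).

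By limma, with Benjamini-Hochberg adjustment over all kept probe sets and a threshold of 0.05, 4827 probe sets passed (16.6%), of which 1778 were higher in E14 (6.13%) and 3049 lower (10.5%). Of the genes, 2108 passed (15.5%), of which 911 were higher in E14 (6.68%) and 1197 lower (8.77%). These 2108 genes were all consistent, and in 2047 the gap between the nearest arrays of the lines was larger than the range within either line. As the test used the same values, this describes the calls and adds no support to them. Differences were at least 2-fold in 775 of the genes that passed and smaller in 1333. After quantile normalization the direction of the split turned, with 1171 genes higher and 1054 lower. Consistent and at least 2-fold, whatever the test, were 2979 probe sets (10.3%), 1012 higher (3.49%) and 1967 lower (6.78%), and 980 genes (7.18%), 475 higher (3.48%) and 505 lower (3.7%). Consistency alone is a weak sign of a difference, as the gap was at most 0.05 on the log2 scale in 1502 of the 6665 consistent genes. The count of genes that passed fell to 974, 505 and 638 when the scrambled, shRNA3387 or shRNA2863 array of E14 was left out, and 368 of the 2108 genes passed in the same direction whichever array was left out.

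Both lines carried the 6 markers of embryonic stem cells well above the filter on every array. Pou5f1, which encodes Oct4, read 11.73 and 11.27 in J1 and 11.60, 11.34 and 11.24 in E14. Nanog read 10.59 and 9.71 in J1 and 10.53, 10.43 and 10.55 in E14, and Zfp42 12.10 and 11.54 against 11.81, 11.61 and 11.71. The arrays of the lines overlapped for these 3 genes, and 5 of the 6 stem cell markers did not pass the test. Sox2, the HMG-box partner of Oct4, was the sixth and was higher in E14, at 11.51 and 11.16 in J1 and 12.10, 12.16 and 12.07 in E14 (0.78 ± 0.12 SE, adjusted p = 0.019). Its call was lost when any 1 of the E14 arrays was left out.

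Of 12 fibroblast markers, 9 were above the 40th percentile on at least 1 array. Of these 9, 1 passed the test, Col1a2, beside 15.5% of all genes in either direction. Col1a2, a chain of type I collagen, read 6.24 and 5.95 in J1 and 3.62, 3.59 and 3.61 in E14, so the lines did not overlap and the difference was -2.49 ± 0.11 (SE, adjusted p = 0.0023). The partner chain Col1a1 read 4.39 and 3.89 in J1 and 4.61, 3.30 and 3.89 in E14. Col3a1, Pdgfrb, Prrx1 and S100a4 read below 4.3 on every array, and Postn, Dcn and Fap were under the filter on all 5. The summed level of the 12 markers, as log2, was 7.83 and 7.75 in J1 and 7.41, 7.29 and 7.499 in E14. The part of feeder cells in the results below was not tested. In a bulk sample fewer cells of a type and less RNA per cell cannot be told apart.

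Hprt separated the lines most widely. It read 10.91 and 10.80 in J1 and 4.43, 4.38 and 4.41 in E14, a difference of -6.45 ± 0.09 (SE), or 87.3-fold on this scale (adjusted p = 0.0006), at a single probe set. All E14 arrays were low and all J1 arrays high, with a gap of 6.37 between the nearest arrays. As background, E14TG2a, a widely used subline of E14, is deficient in Hprt, while the labels name E14 only. Of 23 kept genes of purine salvage and nucleotide synthesis, 1 was higher and 5 were lower, beside 6.68% and 8.77% over all genes, and the list's median difference was -0.21. After Hprt, the largest was Adss, which makes adenylosuccinate from IMP. It read 11.15 and 11.20 in J1 and 9.96, 9.99 and 10.06 in E14 (-1.17 ± 0.06 SE, adjusted p = 0.003). Adenosine kinase, Adk, was the member that rose (0.76 ± 0.13 SE), though at 1 of 4 probe sets.

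Next below Hprt came an imprinted gene, a phosphatase and an adhesion receptor. Nnat, a small membrane proteolipid, read 7.72 and 7.82 in J1 and 3.35, 2.81 and 2.82 in E14 (-4.78 ± 0.20 SE). Dusp5, which dephosphorylates nuclear ERK, read 7.05 and 7.68 in J1 and 2.75, 2.73 and 2.74 in E14 (-4.63 ± 0.20 SE). Pecam1, the cell adhesion receptor CD31, read 7.44 and 7.42 in J1 and 3.44, 3.23 and 3.43 in E14 (-4.06 ± 0.10 SE). The arrays of a line lay close together and far from the other line for all of these. Dusp5, Plagl1 and Arhgap32 were under the filter level of 3.05 to 3.12 on all E14 arrays and Nnat on 2 of them, where signal is hard to tell from background.

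The other genes with the widest gaps below J1 were the zinc finger factor Plagl1 (-3.55 ± 0.06), 3830417A13Rik (-3.92 ± 0.60), the simple-epithelium keratin Krt7 (-3.42 ± 0.40), the iodide transporter Slc5a5 (-3.21 ± 0.26), AU015836 (-2.99 ± 0.21), Arhgap32 (-2.76 ± 0.07), Calml4 (-2.65 ± 0.22) and Col1a2. Of the 12 genes lower by this rule, 3830417A13Rik and Krt7 lost the call when some arrays were left out, and the other 10 kept it whichever array was left out, though Dusp5, Plagl1 and Arhgap32 were kept only through the J1 arrays and their E14 values, at the floor, carry little spread to test. On 3830417A13Rik the J1 arrays read 7.70 and 8.84 and the E14 arrays 3.85, 3.93 and 5.27, so it spread more within each line.

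Higher in E14 were a midline ubiquitin ligase, a PI3-kinase subunit and a run of short transcripts. Mid1, an X-linked ubiquitin ligase, read 4.16 and 3.26 in J1 and 8.47, 9.80 and 9.61 in E14 (5.58 ± 0.53 SE, 47.9-fold, adjusted p = 0.0078). Snord104, a small nucleolar RNA, read 3.75 and 3.48 in J1 and 9.08, 8.84 and 9.0 in E14 (5.36 ± 0.14 SE, adjusted p = 0.00092). Pik3cd, the delta catalytic subunit of PI3-kinase, read 7.22 and 7.45 in J1 and 13.23, 12.39 and 12.37 in E14 (5.33 ± 0.31 SE, adjusted p = 0.0035). All E14 arrays were high and all J1 arrays low for each. Mid1 and Pik3cd each rest on 1 probe set, as their other kept probe set did not pass the test.

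Among the rest of the 12 genes with the widest gaps above J1 were the ribosomal protein Rpl37 (3.30 ± 0.10), Tomm7 of the mitochondrial import complex (3.29 ± 0.09), Atp5k of the ATP synthase (3.17 ± 0.06), the respiratory chain subunit Cox7a1 (3.17 ± 0.14), Smim4 (3.48 ± 0.20), the snoRNA host gene Snhg8 (3.50 ± 0.21), Bola2 (3.05 ± 0.10), Fmc1 (3.12 ± 0.15) and 1700097N02Rik (3.87 ± 0.29). All 12 kept the call whichever array was left out. Tomm7 read 7.09 and 6.97 in J1 and 10.23, 10.37 and 10.37 in E14, with arrays of a line within 0.14 of each other. Tomm7, Atp5k, Rpl37 and 1700097N02Rik were read at probe sets whose names end in _x_at, which marks probes that can bind other transcripts.

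**Figure D3:**
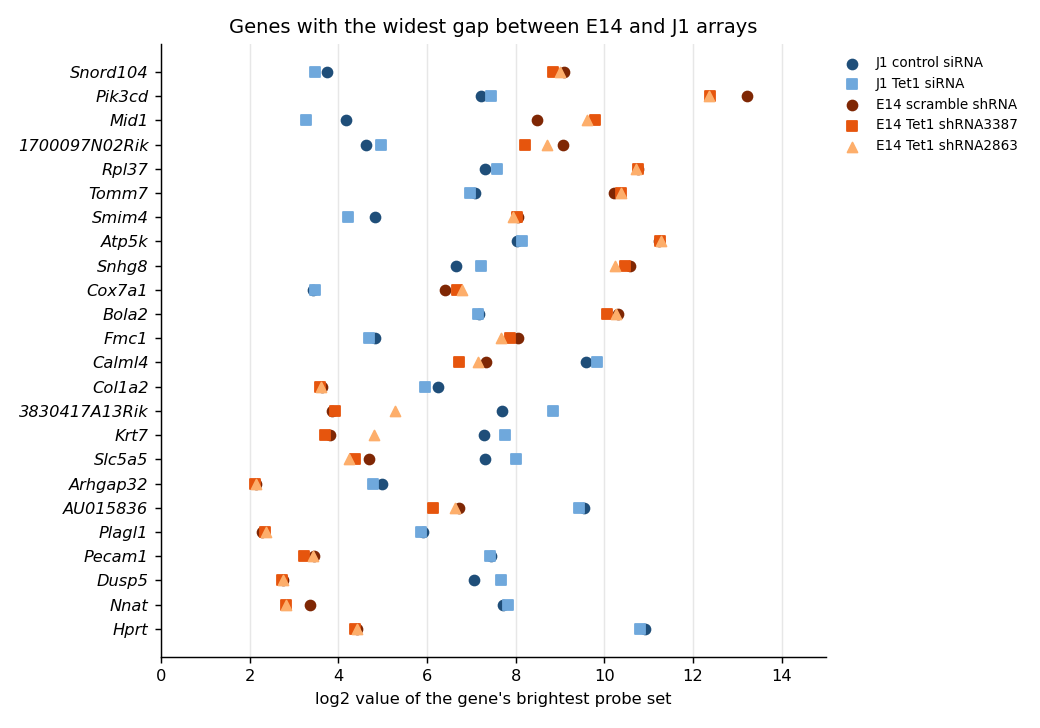
Log2 values on the 5 arrays for the 12 genes each way with the widest gap between the nearest arrays of the lines, among genes that passed the limma test. Each point is 1 array. From Hprt (10.91 and 10.80 in J1, 4.38 to 4.43 in E14) at the foot to Snord104 (3.75 and 3.48 in J1, 8.84 to 9.08 in E14) at the top, blue J1 points and brown or orange E14 points do not overlap.

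The calls were not spread evenly over gene span or probe set type. Among genes with a mean log2 value over 6, 21.9% of the shortest eighth (up to 5.58 kb from start to end) were higher in E14, against 14.8% of the second eighth and 6.09% to 8.56% of the others, and the shares lower ran from 9.57% to 17.6%. Probe sets ending in _x_at were higher in 14.3% and lower in 5.37%, beside 6.13% and 10.5% over all kept probe sets. Those listed with several symbols were higher in 23.6% and lower in 8.79%. Other classes leaned the other way. Probe sets ending in _a_at were higher in 9.37% and lower in 18.3%. Probe sets of a named gene other than its brightest were higher in 5.31% and lower in 15.8%. Cytosolic ribosomal proteins, which are short, abundant genes with many near-identical copies, were more often higher, like the shortest genes and the _x_at probe sets. Of 31 kept, 14 were higher (45.16%) and 6 lower (19.35%), beside 6.68% and 8.77% over all genes. Their median difference was 0.34 beside 0.03 over all genes. The larger differences were all upward: Rpl38 read 11.47 and 11.67 in J1 and 13.31, 13.41 and 13.36 in E14 (1.79 ± 0.07 SE), and Rps25 7.15 and 7.22 in J1 and 9.23, 8.75 and 9.13 in E14 (1.85 ± 0.17 SE). The 6 that fell, among them Rps3 (-0.34) and Rpl19 (-0.27), fell by less than 0.35, and the other Rps3 probe set passed as higher (1.27). The 18S ribosomal RNA and poly-A controls moved with these genes, and their part was not tested.

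Imprinted genes expressed from the paternal copy included 7 of 22 kept members lower in E14 and 0 higher, beside 8.77% and 6.68% over all genes. Besides Nnat and Plagl1 they were the growth factor Igf2, the Polycomb-related Sfmbt2, the retrotransposon-derived Peg10, its neighbour Sgce and the hydrolase-like Mest. Igf2 read 9.21 and 9.63 in J1 and 7.22, 5.93 and 6.71 in E14 (-2.80 ± 0.43 SE). Sfmbt2 read 10.39 and 10.52 in J1 and 7.5, 7.75 and 8.42 in E14 (-2.57 ± 0.30 SE), and Peg10 6.43 and 7.16 against 5.03, 4.19 and 4.20 (-2.32 ± 0.38 SE). No J1 array overlapped an E14 array for these genes. The 15 other members did not pass, the list's median was -0.26, and 2 of the 7 (Nnat and Plagl1) kept the call whichever array was left out.

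Genes expressed from the maternal copy went both ways, with 3 of 17 higher and 3 lower, beside 6.68% higher and 8.77% lower over all genes, and a median of -0.02. Calcr, the calcitonin receptor, read 3.14 and 2.82 in J1 and 5.13, 6.65 and 5.52 in E14 (2.79 ± 0.50 SE). Ascl2, a trophoblast basic helix-loop-helix factor, read 5.04 and 6.13 in J1 and 3.71, 3.49 and 3.79 in E14 (-1.92 ± 0.35 SE). The cell cycle inhibitor Cdkn1c differed by -1.49 ± 0.28, and lost its call when any 1 of the E14 arrays was left out. The ubiquitin ligase Ube3a differed by -1.63 ± 0.14 at its brightest probe set, but by 0.03 as the median over its probe sets.

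Several trophectoderm and placental genes were lower in E14. Of 20 kept, 8 were lower and 0 higher, beside 8.77% and 6.68% over all genes, and the median was -0.84. The keratins Krt7, Krt18 and Krt8 fell, and so did Ascl2, Peg10, Bmp4, the homeobox gene Rhox6 and the Hippo-pathway factor Tead4. Krt7 read 7.29 and 7.75 in J1 and 3.81, 3.69 and 4.80 in E14, and Krt18 11.75 and 12.46 in J1 and 9.83, 9.24 and 10.56 in E14 (-2.23 ± 0.46 SE, adjusted p = 0.043). J1 with Tet1 siRNA was the highest array for both keratins, and shRNA2863 the highest in E14. The defining factors Cdx2, Gata3 and Elf5 were under the filter on all 5 arrays, between 2.17 and 2.80. The mean over the list was 6.24 and 6.84 in J1 and 5.44, 5.41 and 5.68 in E14. With 1 array left out the count lower ran from 0 (without shRNA3387) to 8 (without J1 control), and 0 of the 8 kept the call whichever array was left out. As the median of the control pair alone the list stood at -0.54.

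Basement membrane and adhesion genes showed 8 of 33 lower and 0 higher, beside 6.68% higher and 8.77% lower over all genes, with a median of -0.08. The same shares stand beside the endoderm and fibroblast counts that follow. After Pecam1 these were the collagen IV chains Col4a2 (-2.14 ± 0.22) and Col4a1 (-1.78 ± 0.24), the integrin subunits Itga3 (-1.99 ± 0.13), Itga5, Itgb1 and Itga6, and perlecan, Hspg2. Itga3, which pairs with beta-1 integrin to bind laminin, read 9.47 and 9.64 in J1 and 7.75, 7.47 and 7.49 in E14, and its 2 other probe sets passed in the same direction. Of the 8 genes, 5 lie on chromosomes 8 or 11, where genes were lower as a group. Primitive endoderm genes showed 5 of 19 lower and 0 higher, of which Col4a1, Col4a2, Krt19 and the matrix protein Sparc lie on those chromosomes and Bmp2 does not. The endoderm factors Gata4, Gata6 and Sox17 read below 3.9 on every array. Of the wider list of 31 fibroblast and mesenchymal genes, 5 were lower and 0 higher with a median of 0.00: Col1a2, Sparc, Thbs1 and the matricellular genes Ccn1 and Ccn2. Sparc read 10.95 and 11.38 in J1 and 9.32, 9.28 and 9.42 in E14 (-1.83 ± 0.15 SE).

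Several genes of the primed epiblast were higher in E14. Of 17 kept, 4 were higher and 1 lower, beside 6.68% higher and 8.77% lower over all genes, and the median difference was 0.89 beside 0.03 over all genes. Lef1, the Wnt-responsive HMG-box factor, read 5.32 and 4.61 in J1 and 8.07, 8.90 and 8.28 in E14 (3.45 ± 0.35 SE, adjusted p = 0.009) and kept the call whichever array was left out. Otx2, a homeobox factor of the exit from the naive state, read 6.58 and 4.55 in J1 and 8.71, 8.89 and 8.56 in E14 (3.16 ± 0.63 SE, adjusted p = 0.04). All E14 arrays were above both J1 arrays, and within J1 the Tet1 siRNA array was the lower. The secreted Wnt modulator Sfrp2 (2.28 ± 0.35) and the zinc finger gene Zic5 (1.87 ± 0.36) were the others that rose, and Krt18 the one that fell. Of the 2 other Zic5 probe sets 0 passed, and its median over probe sets was 0.62. Fgf5, the classical marker, read 2.37 and 2.40 in J1 and 2.91, 6.65 and 2.89 in E14, so that it was above the filter with shRNA3387 alone, and it did not pass the test. Pou3f1 read 8.40 and 8.22 in J1 and 8.82, 9.85 and 8.94 in E14 and did not pass either. With 1 array left out, between 1 and 4 genes of the list were called higher.

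Naive-state factors also included genes that were higher in E14, with 2 of 20 higher (10%) and 1 lower (5%). These shares lie near the 6.68% higher and 8.77% lower over all genes, and 0 were higher when any 1 E14 array was left out. Klf4, a LIF-responsive Kruppel-like factor, read 8.97 and 8.10 in J1 and 10.71, 10.63 and 10.63 in E14 (2.12 ± 0.27 SE, adjusted p = 0.014). Nr0b1, the orphan receptor Dax1, read 8.86 and 8.01 in J1 and 10.05, 9.74 and 9.72 in E14 (1.40 ± 0.29 SE). Esrrb (1.33 ± 0.39) and Prdm14 (1.38 ± 0.39) did not pass at their brightest probe sets, with adjusted p of 0.096 and 0.089, while 1 of 2 other Esrrb probe sets passed as higher. In each of these genes the J1 array with Tet1 siRNA was the lowest of the 5. Of 21 core pluripotency regulators, 4 were higher (19.05%) and 0 lower: Sox2, Nr0b1, the Nodal co-receptor Tdgf1 and the forkhead factor Foxd3, which read 4.98 and 3.94 in J1 and 6.39, 6.32 and 6.37 in E14 (1.90 ± 0.33 SE). The median of this list was 0.19 over all arrays and 0.00 in the control pair alone, and 0 of its members passed when any 1 E14 array was left out.

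Nodal signalling genes were higher in 6 of 19 and lower in 1, beside 6.68% higher and 8.77% lower over all genes, with a median of 0.45. Lefty1, a secreted Nodal antagonist and target, read 9.12 and 7.99 in J1 and 10.82, 10.77 and 10.09 in E14 (2.01 ± 0.43 SE, adjusted p = 0.046). The receptors Acvr2a (1.09 ± 0.20) and Acvr2b (1.19 ± 0.26) rose, as did Tdgf1 and the pathway inhibitors Smad7 and Skil, while the effector Smad2 fell by 0.87. The other probe set of each receptor did not share the rise, and as medians over probe sets they differed by 0.31 and 0.58. The other Skil probe set passed as lower (-0.47). Lefty2 read 7.28 and 5.07 in J1 and 8.35, 8.06 and 7.86 in E14 and did not pass (adjusted p = 0.16). No call of this list was kept whichever array was left out.

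FGF-ERK feedback and immediate early genes split, with 3 of 24 higher and 6 lower, beside 6.68% higher and 8.77% lower over all genes. Lower with Dusp5 were Fgfr2, the phosphatase Dusp14, the adaptor Shc1, Phlda1 and Spred1, and higher were the feedback inhibitors Spry4 (1.29) and Spry2 (0.82) and the transcription factor Etv5 (1.08). Another Etv5 probe set passed as lower (-1.79). Fgfr2 read 6.99 and 6.89 in J1 and 5.74, 5.48 and 4.96 in E14 (-1.55 ± 0.26 SE), and Shc1 8.73 and 8.83 against 7.31, 7.59 and 7.33 (-1.37 ± 0.13 SE). The lines did not overlap at either gene. Of 21 LIF and Stat3 genes, 1 passed each way (4.76%): Junb fell (-1.0 ± 0.08), at 6.97 and 6.93 in J1 and 5.95, 5.94 and 5.96 in E14, and Klf4 rose.

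**Figure D4:**
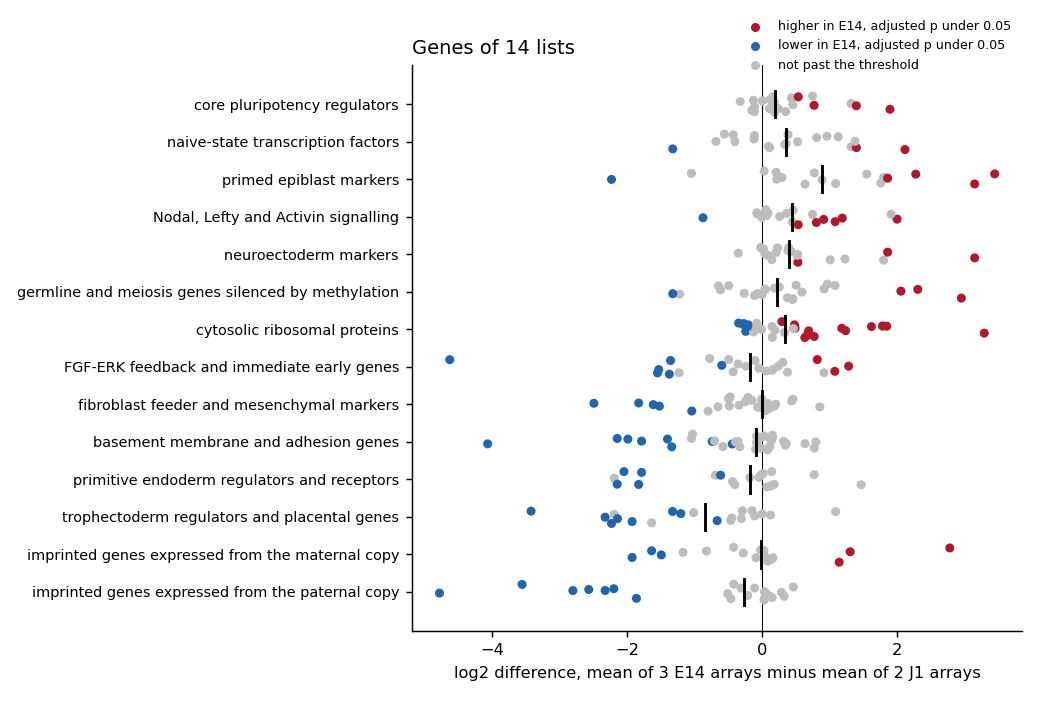
Log2 difference, mean of the 3 E14 arrays minus mean of the 2 J1 arrays, for the kept genes of several lists. Each point is a gene, red or blue where limma's adjusted p was under 0.05, and black bars are list medians. Paternally expressed imprinted, trophectoderm, endoderm, adhesion and feeder genes have blue points and no red ones, and the primed epiblast median lies at 0.89.

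At its brightest probe set, no DNA methyltransferase or kept Tet enzyme passed the test. However, both other probe sets of Dnmt1 passed as higher, and 1 of 4 others of Dnmt3a passed as lower. Dnmt1, the maintenance enzyme, read 9.95 and 9.87 in J1 and 10.05, 10.10 and 10.15 in E14 (0.19 ± 0.07 SE, adjusted p = 0.14), Dnmt3a differed by -0.06 ± 0.15, Dnmt3b by 0.04 ± 0.17 and their cofactor Dnmt3l by -0.19 ± 0.24. Tet2 read 8.03 and 6.90 in J1 and 8.38, 8.19 and 8.21 in E14, 0.80 ± 0.36 (adjusted p = 0.24). Of 22 genes of DNA methylation and its removal, 1 was higher (4.55%, beside 6.68% over all genes), the methyl-binding Mbd3 (0.81 ± 0.10), and 2 lower (9.09%, beside 8.77%), Gadd45b (-1.49 ± 0.18) and the glycosylase Smug1 (-0.93 ± 0.19). Of 24 germline genes known to be silenced by methylation, 3 were higher (12.5%): the synaptonemal complex gene Sycp3, at 6.54 and 5.91 in J1 and 9.34, 9.37 and 8.84 in E14 (2.96 ± 0.28 SE), Rhox13 (2.31 ± 0.40) and the piRNA factor Mael (2.06 ± 0.42). Tex19.1 fell by 1.32. Rhox13 was under the filter on both J1 arrays, at 2.96 and 2.99, and was kept only through the E14 arrays. Without the shRNA3387 array, 0 genes of this list were called higher. The CpG content of promoters, as observed over expected in the upstream window, had a median of 0.711 for genes consistent and 2-fold higher, 0.740 for those lower and 0.704 for all kept genes.

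Polycomb and Trithorax genes were lower in 7 of 30 and higher in 2, beside 6.68% higher and 8.77% lower over all genes, which also stand beside the counts that follow. Without the shRNA3387 array, 0 genes of this list passed in either direction. Mtf2, which guides PRC2 to CpG islands, read 11.46 and 10.97 in J1 and 9.87, 9.25 and 9.46 in E14 (-1.69 ± 0.25 SE), although 0 of its 4 other probe sets passed in that direction. Suz12 of PRC2 fell by 1.02 at its brightest probe set, with 2 others in the same direction and 1 opposite. Among cell cycle genes, cyclin D2 (Ccnd2) read 6.26 and 5.66 in J1 and 8.44, 8.25 and 8.42 in E14 (2.41 ± 0.21 SE), and 4 of its 5 other probe sets passed in the same direction. The CDK inhibitor Cdkn1b rose at its brightest probe set (1.93 ± 0.24), but not at its other one, and E2f4 fell (-1.93 ± 0.21). Of 24 p53 targets 2 were higher, among them the BH3-only gene Bbc3 (1.17 ± 0.16), and 3 lower, among them Mdm2 (-0.995 ± 0.19), shares of 8.33% and 12.5% that lie near those over all genes. For MHC class I and antigen processing, 4 of 18 were higher, led by H2-Bl (1.33 ± 0.28) and the immunoproteasome subunit Psmb8, at 3.26 and 3.13 in J1 and 4.26, 4.57 and 4.55 in E14, and 2 lower. Interferon response genes passed in 1 of 26 each way, Hox genes in 0 of 14 and two-cell-like genes in 0 of 7.

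Wnt pathway genes passed in 2 of 17 each way, beside 6.68% higher and 8.77% lower over all genes, and these shares stand beside the neuroectoderm and mesoderm counts too. Lef1 and the receptor Fzd7 were higher, and the ligand Wnt7b and beta-catenin, Ctnnb1, lower. Wnt7b read 7.80 and 7.85 in J1 and 6.06, 5.70 and 6.04 in E14 (-1.89 ± 0.15 SE), and kept the call whichever array was left out. The Wnt target Sp5 read 4.27 and 3.94 in J1 and 6.76, 4.97 and 7.06 in E14 and did not pass. Neuroectoderm markers were higher in 3 of 19 and lower in 0, with a median of 0.40. Those 3 were Otx2, Zic5 and the Notch target Hes5, of which the first 2 are also in the primed epiblast list. Sox1 was under the filter on all arrays, and Pax6 overlapped between the lines. Mesoderm markers passed in 1 of 15, the BMP ligand Bmp4, which read 9.79 and 9.46 in J1 and 8.50, 8.31 and 8.10 in E14 (-1.32 ± 0.17 SE).

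Metabolic and stress genes went both ways, and their counts stand beside 6.68% higher and 8.77% lower over all genes. Of 31 genes of glycolysis and the hypoxia response, 4 were higher and 4 lower: the muscle-type enolase Eno3 fell, at 7.82 and 7.81 in J1 and 6.72, 6.45 and 6.32 in E14 (-1.32 ± 0.15 SE), with the lactate exporter Slc16a3, Hk1 and Hif1a, and Pdk1, Tpi1, Aldoa and Ldha rose. Of 30 glutathione and NRF2 target genes 4 were higher, led by the microsomal transferase Mgst1 (1.79 ± 0.33), and 5 lower, among them haem oxygenase Hmox1 (-1.18 ± 0.21) and the quinone reductase Nqo1 (-1.11 ± 0.22). The calls of Mgst1 and Nqo1 were lost when any 1 of the E14 arrays was left out. Hmox1 and Nqo1 both lie on chromosome 8. Of 11 globin and haem synthesis genes 3 were lower and 0 higher: Hmox1, Uros (-1.26 ± 0.10) and Alad (-1.06 ± 0.14), which act in breaking down or making haem. As the median over its probe sets Uros differed by -0.58. The alpha globin Hba-a2 read 2.90 and 3.16 in J1 and 6.11, 3.40 and 3.35 in E14, high with the scrambled hairpin only, and did not pass. Integrated stress response genes passed in 1 of 30 each way, Phgdh of serine synthesis (0.81) and the pseudokinase Trib3 (-0.94).

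Cell division genes passed in both directions. Of 35 genes of DNA replication and mitosis 2 were higher and 6 lower, and of 33 cyclins and CDK inhibitors 3 were higher and 7 lower. Beside 6.68% higher and 8.77% lower over all genes, the shares higher (5.71% and 9.09%) lie near the background. The replication licensing factor Cdc6 read 9.19 and 9.40 in J1 and 7.80, 7.91 and 7.96 in E14 (-1.41 ± 0.11 SE). Cyclin A2, Ccna2, differed by less, at 10.69 and 10.65 in J1 and 10.15, 10.03 and 10.07 in E14 (-0.59 ± 0.06 SE), and the lines did not overlap at either gene. As the median over its probe sets Ccna2 differed by -0.24. Cdc6 lies on chromosome 11. Among X-inactivation and Y-linked genes 3 of 17 were higher, Mid1, the X-linked demethylase Kdm5c (0.86 ± 0.12) and the Y-linked translation factor Eif2s3y, which read 8.77 and 8.96 in J1 and 9.48, 9.62 and 9.66 in E14. Of the 5 other Kdm5c probe sets, 1 passed in the opposite direction.

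Genes of chromosomes 8 and 11 were lower in E14 as a group, and those of chromosome 6 higher. On chromosome 8, 18.8% of 712 genes were called lower and 1.97% higher, and on chromosome 11, 17.1% of 1093 were lower and 3.57% higher, beside 8.77% and 6.68% over all genes. On chromosome 6, 11.1% of 692 were higher and 4.91% lower. Over genes with a mean log2 value over 8, the median difference was -0.26 on chromosome 8 (207 genes), -0.30 on chromosome 11 (329 genes) and 0.23 on chromosome 6 (167 genes), with the other chromosomes between -0.07 and 0.16. Over the 6 pairs of an E14 and a J1 array the medians ran from -0.33 to -0.16 on chromosome 8, from -0.34 to -0.23 on chromosome 11 and from 0.07 to 0.37 on chromosome 6, the same sign in every pair. Chromosome X also kept its sign, with a median of 0.16 and pairs from 0.05 to 0.26 that overlap those of chromosome 6. However, 8.06% of its genes were called higher and 6.82% lower, shares near those over all genes. Within the lines the medians of these chromosomes lay between -0.12 and 0.04. The shifts depended on level. Among genes with a mean of 6 to 8, medians were -0.29 on chromosome 8, -0.19 on 11 and 0.065 on 6, beside 0.027 elsewhere. At a mean of 4 to 6 they were -0.062, -0.005 and 0.029, beside 0.022 elsewhere.

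The shift was not confined to a stretch of chromosome 8 or 11. Genes with a mean log2 value over 8 were put in order along the chromosome and cut into 4 parts of like number. Medians were -0.17, -0.26, -0.30 and -0.26 on chromosome 8 and -0.20, -0.23, -0.35 and -0.40 on chromosome 11. On chromosome 6 they were 0.24, 0.05, 0.24 and 0.42, so the second part lay near the other chromosomes. No run of 11 neighbouring genes held 5 that were consistent and 2-fold in 1 direction. Outside chromosomes 8 and 11, genes that passed were nearly balanced, with 858 higher and 876 lower of 11838. Genes on 8 or 11 among those named include Slc5a5, Col4a1, Col4a2, Itgb1, E2f4, Junb, Pecam1, Itga3, Krt19, Sparc and Suz12, which were lower. Snord104 and Rpl38, both on chromosome 11, rose. As background, stem cell cultures are known to gain whole chromosomes, 8 and 11 among them. DNA copy number was not measured, so copy number and expression cannot be told apart here.

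**Figure D5:**
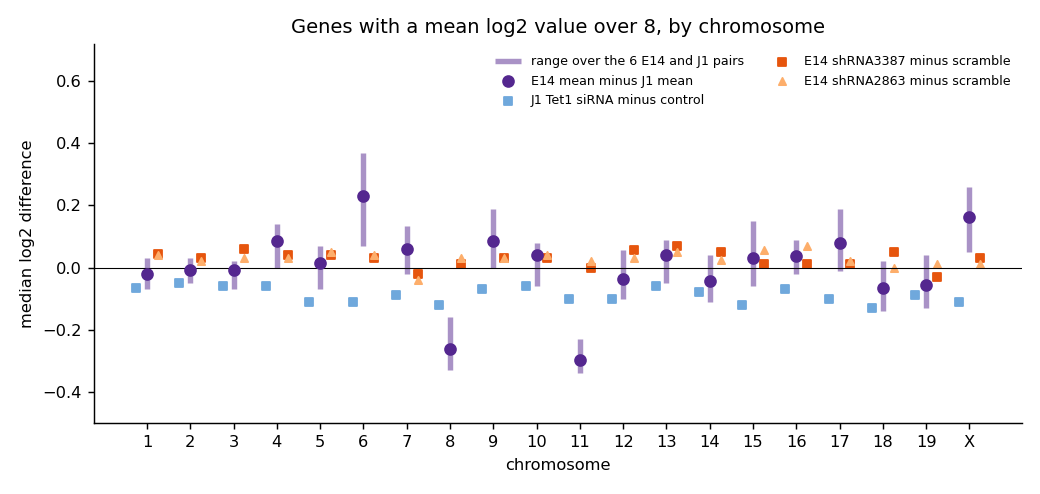
Median log2 difference by chromosome over genes with a mean log2 value over 8. Purple points are the mean of E14 minus the mean of J1, purple bars the range over the 6 pairs of an E14 and a J1 array, and small symbols the differences within a line. Chromosomes 8 (-0.26) and 11 (-0.30) lie below 0 and chromosomes 6 (0.23) and X (0.16) above it in every pair.

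Probe sets of 1 gene did not always move together. In 108 genes, kept probe sets passed in opposite directions. For Son, a splicing cofactor, 1 probe set read 7.41 and 8.19 in J1 and 10.25, 10.24 and 10.23 in E14, and another 7.29 and 7.30 in J1 and 4.88, 5.37 and 5.34 in E14. The differences of opposite probe sets were 2.27 and -1.72 for the methyltransferase Prmt3, 1.67 and -2.33 for the telomere-associated factor Rif1, 1.64 and -2.10 for Taf1d and 1.5 and -1.995 for Arhgap5. The transferrin receptor was lower in E14 by unequal amounts: its 3 control probe sets averaged 5.42 and 7.52 in J1 and 3.56, 3.49 and 3.54 in E14, while its brightest ordinary probe set, Tfrc, read 11.13 and 11 in J1 and 10.94, 10.88 and 10.91 in E14 and did not pass. Of the 1209 genes that passed and had other kept probe sets, 474 had another that passed in the same direction and 73 one that passed in the opposite direction.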

How the data were processed

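RNA of 2 J1 and 3 E14 samples was measured on Affymetrix arrays, 1 array per sample. The deposited values are log2 probe set values, a scale inferred from their range of 1.38 to 14.12. How the authors summarized and normalized them is not given in the sources used here. They were used as deposited. Gene symbols came from the platform annotation and chromosomes from RefSeq on GRCm38.p6.

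E14 minus J1 was fitted by limma (version 3.58.1, under R 4.3.3) using eBayes with its trend option and 3 residual degrees of freedom, two-sided, with Benjamini-Hochberg adjustment at 0.05. Kept probe sets exceeded the 40th percentile of their array on at least 1 array, and array controls were left out. Errors are standard errors for 3 E14 against 2 J1 arrays. Precision is limited by there being 5 arrays. On simulated data for this comparison (29001 probe sets) the fit recovered 51 of 100 probe sets changed by 1 on the log2 scale and 85 of 100 changed by 2, with 2 false calls. Only these probe sets were changed, a far smaller share than the 16.6% that passed here, and noise was independent between probe sets. Effects shared by the arrays of a line were not simulated, so recovery and false calls in the data can differ. Lists and chromosomes were described by counts and medians with no test.

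Members and the 32 lists were chosen with earlier results of these data known. Named genes are the 12 with the widest gap each way, up to 4 per list by size of difference, the 4 widest gaps each way among genes above the filter on all 5 arrays, the 5 with the most opposed probe sets, the cell type markers, and the Tet, Dnmt and core pluripotency genes with Hprt. Other called list members, and Tfrc, were named after their values were seen. Alternatives were quantile normalization, median centring, other filters, no trend, a Tet1 term, no _x_at probe sets, the median over probe sets, a 1.5-fold threshold, the control pair alone and leaving out each array. Chosen after seeing the data were counts outside chromosomes 8 and 11, the limit of 8 on the mean, gene span, probe set classes and array controls.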

Additional observations from a re-analysis of the deposited data

Results flagged for a closer look

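Control probe sets outside the gene comparison carried signal on the E14 arrays above the J1 arrays. The E14 means were 8.69 for the dap, 6.08 for the lys, 6.58 for the phe and 5.10 for the thr poly-A spike, against J1 means of 2.36, 2.75, 2.75 and 2.80. The 18S ribosomal RNA probe sets averaged 10.2 in E14 and 5.398 in J1, the B1 repeat 11.4 and 7.89, and the MUR_b2 repeat 10.1 and 8.10.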

How the results depend on the processing

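Counts stayed within 1.5 times of those reported under quantile normalization, median centring, other filters, no trend, a Tet1 term, no _x_at probe sets, the median over probe sets and genes outside chromosomes 8 and 11 (chosen after seeing the data). A 1.5-fold threshold gave 6342 consistent probe sets in place of 2979. With 1 array left out, probe sets that passed ran from 1337 to 5222, genes from 505 to 1945 (230 to 953 higher, 275 to 992 lower) and consistent 2-fold probe sets from 2831 to 3806. Chromosome medians then ran from 0.117 to 0.373 on 6, -0.287 to -0.175 on 8 and -0.318 to -0.217 on 11, with 0.373, -0.175 and -0.217 found without J1 control. The higher and lower genes were 1171 and 1054 after quantile normalization, so the direction that held more genes turned. By the median over probe sets they were 832 and 1496, and lower genes stayed the more numerous.

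Of the 93 named genes that passed, 78 still passed with a Tet1 term, 89 after quantile normalization and 80 by the median over probe sets. That median turned the sign of Arhgap5 (-0.24), Dnmt3a (0.20), Dnmt3b (-0.41), Pfkp (-1.23), Prmt3 (0.86), Son (-0.41), Tet1 (-1.003) and Ube3a (0.0267). Quantile normalization turned Dnmt3a (0.047), Dnmt3b (-0.0175) and Sesn2 (-1.69, read at another probe set), and median centring Rif1 (-0.005). With 1 array left out, signs turned for Dnmt3a (-0.15 to 0.06), Dnmt3b (-0.12 to 0.15), Dnmt3l (-0.383 to 0.00667), Hoxd13 (-0.293 to 0.00667), Nanog (-0.0867 to 0.793), Pou5f1 (-0.34 to 0.12), Rif1 (-0.20 to 0.23), Sesn2 (-1.97 to 2.45) and Tet1 (-0.77 to 1.77). Apart from Son and Ube3a, none of these genes had passed. The cause was not tested. No paired analysis was possible because each array is a different treatment and the labels give no replicate numbers.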
